A study of Mus musculus with 37 samples.

Results

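The comparison of wild-type temporal lobe between the 129 and C57 mouse strains rested on the arrays titled 129_WT, 9 in number, and those titled C57_WT, also 9, which were 18 of the 37 arrays of the study. Every probe set of the array other than the manufacturer's controls was included, 45037 in all. The remaining arrays came from mice without Wfs1, the gene mutated in Wolfram syndrome: 9 were titled C57_KO and 10 were titled 129_KO. All tissue was temporal lobe dissected under a microscope and frozen, and total RNA was labelled with biotin for Affymetrix arrays. The labels call the strains C57 and 129SV, whereas the series' design text calls them C57B6 and 129S6. Neither gives the age, sex or litter of the mice, how each background was bred, or whether each array was a separate animal, so p-values measure only the spread between these arrays, which may be technical.

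C57 and 129 are families of inbred mouse strains that are widely used in gene targeting. Embryonic stem cells of 129 origin carried most early targeted alleles, and many such alleles were later moved by repeated crossing to C57. The strains differ at many DNA positions, and such differences can alter how much of a transcript is made, how it is spliced, and how well a short array probe pairs with it. On these arrays a gene was read by 1 or several probe sets, each a group of short probes placed mostly toward the 3′ end of the transcript, and the signal of a probe set depends on the match of its probes as well as on the level of the RNA. Probe sequences were not used here, so for a single probe set these cannot be told apart. In tissue RNA, fewer cells of a type and less RNA per cell cannot be told apart either.

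The array values were log2 signals from 1.34 to 13.32, with array medians between 4.30 and 4.36. Wfs1, read by 1 probe set, checked the genotype labels: with 9 arrays a group, the 129 WT arrays averaged 9.33 (SD 0.12), those of C57 WT 9.32 (SD 0.17) and those of C57 KO 3.03 (SD 0.26). Its strain difference in wild type was 0.01 (SE 0.10, limma adjusted p = 0.990). Of 11 measured genes of temporal lobe neurons, such as Snap25 and Slc17a7, none was called, beside 1.34% of all genes. Of the 11, 0 had an unadjusted p under 0.05, beside 9.70% of all genes. Their mean signal per array was 8.90 to 9.05 in C57 WT and 8.95 to 9.07 in 129 WT. Array 73 of 129 WT stood apart in RNA quality: its actin signal at the 3′ end exceeded that at the 5′ end by 2.76 on the log2 scale, the highest value in its group, while the C57 WT arrays lay between 1.03 and 1.66.

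A probe set was called when its adjusted p in limma (Benjamini-Hochberg, over all probe sets) was under 0.05. The strains differed at 691 of the 45037 probe sets (1.53%), with 275 higher in 129 (0.611%) and 416 lower (0.924%). With limma's array weights the count was 1363, 593 higher and 770 lower. The median absolute difference of the called probe sets was 0.537 on the log2 scale, with a median standard error of 0.117, and the median over all probe sets was 0.01. Large differences lay mostly in 1 direction: of 120 called probe sets that differed at least 2-fold (0.266%), 105 were lower in 129 and 15 were higher. Of 18 that differed at least 4-fold, 17 were lower and 1, for Xaf1, was higher. The labels give no batch, but 2 sets of arrays were told apart by their residuals, and both held arrays of each group. In every group the lower label numbers fell in the first set and the higher ones in the second. What sets them apart was not tested. Within these sets 177 and 307 probe sets were called. Among the 571 called probe sets under 2-fold, 311 were lower and 260 higher.

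**Figure D1:**
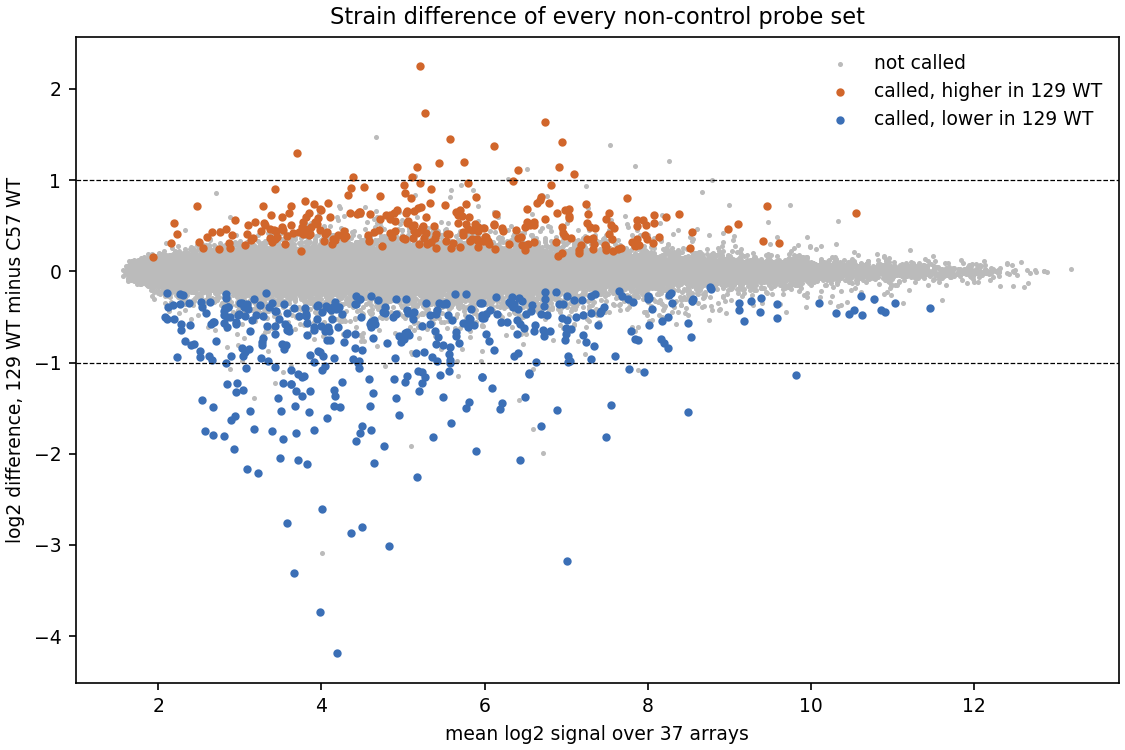
The log2 difference between 129 WT and C57 WT (vertical axis) against the mean log2 signal over 37 arrays (horizontal axis) for each of the 45037 non-control probe sets, with dashed lines at a 2-fold difference. Orange points (275) were called higher in 129 WT and blue points (416) lower, and the points beyond 2-fold are mostly blue and of low to middle signal.

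The mean of the 129 WT arrays lay below 3.60, the level under which 40% of probe sets fell, at 53 of the 120 probe sets. The mean of the C57 WT arrays lay below it at 8, and both means lay above it at 66. The 2 groups of arrays did not overlap at 158 probe sets (0.351%), 150 of them called. Of the 120, 50 did not overlap and 70 did. Named probe sets came from the 500 called ones with 1 gene symbol, as 174 had none and 17 had several. When each gene was read by its brightest probe set, 243 of 18193 genes were called (1.34%), 116 higher (0.638%) and 127 lower (0.698%) in 129.

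Xaf1 encodes a partner of the apoptosis inhibitor XIAP and is itself induced by interferon. Its signal in the C57 WT arrays was 2.50 at the lowest, 3.55 at the median and 5.94 at the highest, and in the 129 WT arrays it was 5.98, 6.24 and 6.59. Every 129 WT array was thus above every C57 WT array, but C57 WT arrays 25, 29 and 40 lay close below them, at 5.34 to 5.94, and the other 6 lay at 2.50 to 3.71. The difference was 2.25 (SE 0.43, limma adjusted p = 0.00205), and an exact two-sided permutation test gave 4.11e-05, the smallest p that 9 against 9 arrays can give; this and the exact tests below are not adjusted for the choice of these genes among all probe sets. Within the array sets the Xaf1 difference was 1.69 (limma adjusted p = 0.316) and 2.69 (0.0176). The second probe set of Xaf1, with means of 3.35 in C57 WT and 3.04 in 129 WT, was called in the other direction, at -0.30 (SE 0.08, limma adjusted p = 0.0435).

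Of 15 measured genes of the XIAP and caspase pathway, Xaf1 was called higher and Diablo lower, beside 1.34% of all genes called. The other 13 were not called. Diablo encodes a mitochondrial protein that releases caspases from XIAP. Diablo differed by -0.28 (SE 0.07, limma adjusted p = 0.0142), and its arrays overlapped between 6.28 and 6.32. Of 34 measured interferon-stimulated genes 3 were called, beside 1.34% of all genes: Xaf1 was higher, and Oasl2 and Trim30a were lower, by -0.55 (SE 0.10, limma adjusted p = 0.00114) and -0.60 (SE 0.11, limma adjusted p = 0.00175). Oasl2 belongs to the oligoadenylate synthetase family and Trim30a to the tripartite motif family. Both means of Oasl2, 3.24 in C57 WT and 2.69 in 129 WT, lay below the low-signal level of 3.60, and the filter at that level removed it. The median difference of the interferon list was -0.08, beside 0.02 for all genes. Both lists were chosen with earlier results of these data known, so their counts are a description. Of 15 microglia markers 0 were called and 5 had an unadjusted p under 0.05, beside 1764 of all 18193 genes (9.70%). Their median difference was -0.12, and their mean signal per array was 6.33 to 6.66 in C57 WT and 6.24 to 6.40 in 129 WT. Their part in the result was not tested.

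**Figure D2:**
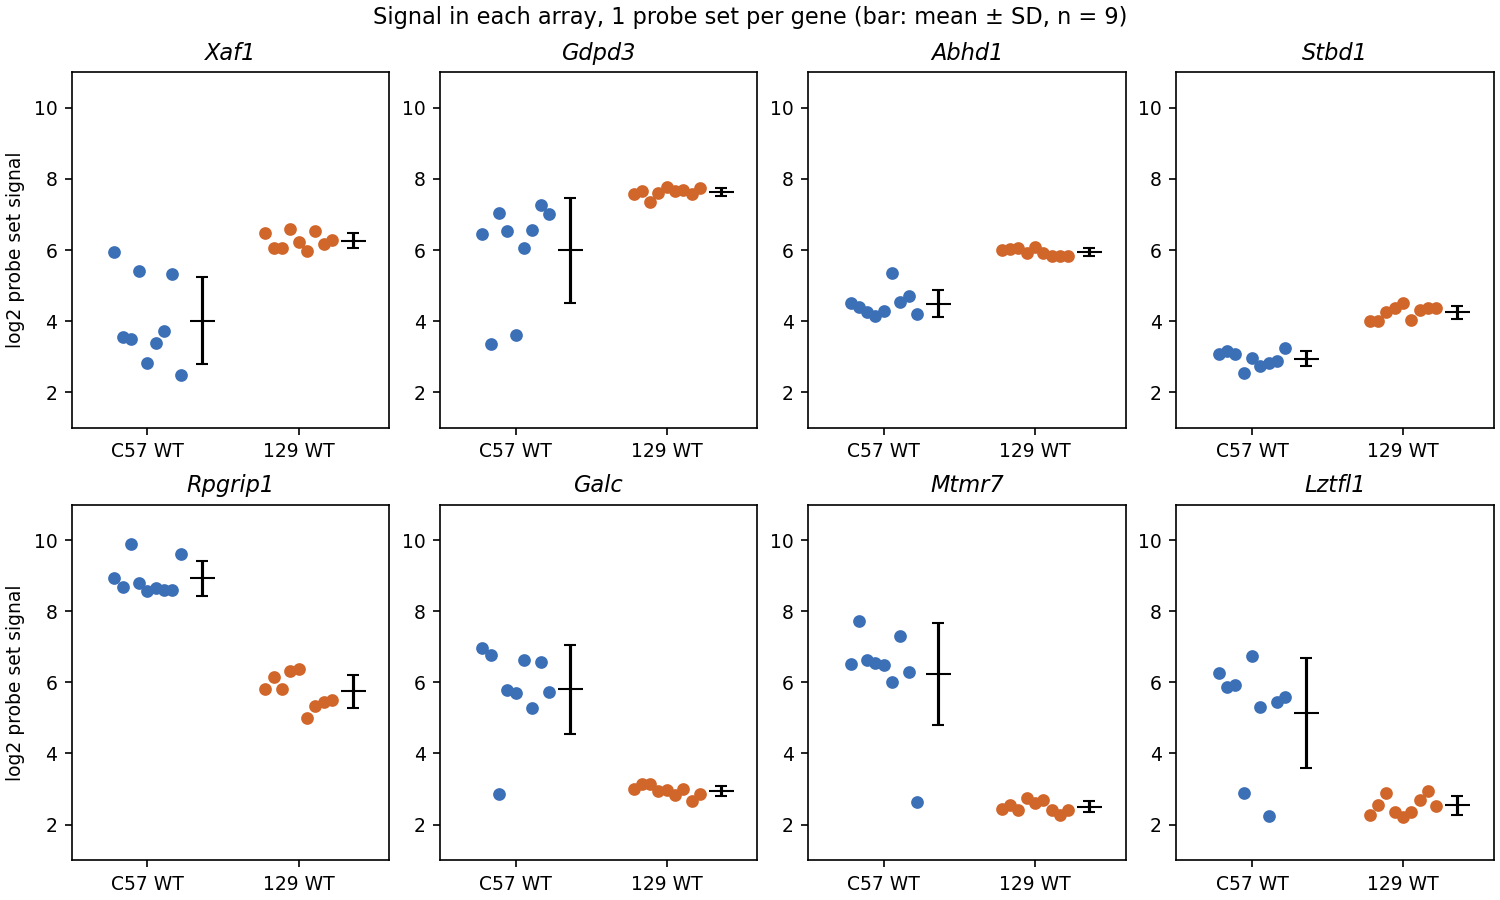
The log2 signal (vertical axis) of each array for 8 genes, with C57 WT in blue and 129 WT in orange, and the mean ± SD of 9 arrays as a bar at the right of each group. The 129 WT arrays are tight in most panels, but for Rpgrip1 the SD is 0.47 in 129 WT and 0.49 in C57 WT. For Xaf1, Gdpd3, Galc, Mtmr7 and Lztfl1, 1 or more C57 WT arrays lie at or near the 129 level.

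Of 28 measured enzymes of phospholipids and their breakdown products, 3 were called, beside 1.34% of all genes: Gdpd3 and Abhd1 were higher in 129 and Mboat2 was lower. The Gdpd1 probe set that was lower is not the one with the highest mean over all arrays and so is not in this count. The median difference of the list was 0.04. The list was chosen with earlier results of these data known, so the count of 3 is a description.

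Gdpd3 and Gdpd1 encode glycerophosphodiester phosphodiesterases that act on lysophospholipids. The Gdpd3 signal was 3.36, 6.55 and 7.27 (lowest, median, highest) in C57 WT and 7.36, 7.66 and 7.77 in 129 WT. The groups did not overlap, and C57 WT arrays 26 and 33, at 3.36 and 3.61, lay far below the other C57 WT arrays. The difference was 1.64 (SE 0.41, limma adjusted p = 0.0263). Without array 26 it was 1.31 (adjusted p = 0.0587) and without array 33 it was 1.34 (adjusted p = 0.0669), so the call rested on each of them. Gdpd1 lay at 6.85, 7.30 and 8.09 in C57 WT and at 4.81, 5.36 and 5.92 in 129 WT, with no overlap and a difference of -2.07 (SE 0.23, limma adjusted p = 2.19e-07). The brightest Gdpd1 probe set was not called. It had means of 7.16 in C57 WT and 7.24 in 129 WT and differed by 0.07 (limma adjusted p = 0.829).

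Mboat2 encodes an acyltransferase that attaches fatty acids to lysophospholipids. Its signal was 6.49, 7.66 and 8.47 in C57 WT and 6.06, 6.21 and 6.32 in 129 WT. The groups did not overlap, although C57 WT array 29 was nearest to the 129 level. The difference was -1.52 (SE 0.19, limma adjusted p = 1.61e-06). The other probe set of Mboat2 differed by -0.14 and was not called (limma adjusted p = 0.483). Abhd1, a member of the alpha/beta hydrolase fold family, lay at 4.14, 4.40 and 5.37 in C57 WT and at 5.82, 5.93 and 6.10 in 129 WT, a difference of 1.45 (SE 0.11, limma adjusted p = 1.14e-11). The groups of Abhd1 did not overlap, and its highest C57 WT array was 34.

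Galc encodes the lysosomal galactosylceramidase, which breaks down myelin lipids and is deficient in Krabbe disease. Its signal was 2.85, 5.79 and 6.97 in C57 WT and 2.65, 2.97 and 3.14 in 129 WT. C57 WT array 28 lay within the range of the 129 WT arrays, and the other 8 C57 WT arrays lay at 5.26 to 6.97. The difference was -2.86 (SE 0.40, limma adjusted p = 1.51e-05; exact two-sided permutation p = 0.000329). Within the array sets it was -2.55 (limma adjusted p = 0.162) and -3.15 (1.17e-06). The other probe sets of Galc were not called, with differences of 0.24 and 0.05. No other of the 20 measured lysosomal hydrolases was called, and the median of the list was -0.04. Of all genes 1.34% were called, so few calls would fall in a list of this size.

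Of 14 measured oligodendrocyte and myelin genes none was called by its brightest probe set, beside 1.34% of all genes. Of the 14, 7 had an unadjusted p under 0.05, beside 9.70% of all genes. The differences of the 14 lay between -0.35 and 0.05 with a median of -0.19. Mbp, which encodes myelin basic protein and was chosen after its values were seen, had 1 of 8 probe sets called, at -0.48 (SE 0.11, limma adjusted p = 0.0170). The brightest Mbp probe set differed by -0.16 (limma adjusted p = 0.221). Another differed by 0.40 (limma adjusted p = 0.185) and was called higher in the 129 knockout arrays, at 0.71 (limma adjusted p = 0.00188). The mean signal of the myelin list was 7.85 to 8.47 per array in C57 WT and 7.72 to 8.09 in 129 WT, and its part in the Galc result was not tested.

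Of the other large falls, Rpgrip1 encodes a scaffold of the connecting cilium of photoreceptors, Lztfl1 a regulator of the BBSome, which moves membrane proteins in cilia, and Dzip1 a protein of the ciliary base. Rpgrip1 lay at 8.57, 8.69 and 9.90 in C57 WT and at 5.00, 5.80 and 6.36 in 129 WT. The groups were far apart, with a difference of -3.18 (SE 0.43, limma adjusted p = 1.12e-05; exact two-sided permutation p = 4.11e-05). Of its 3 other probe sets, 1 was called in the other direction, at 0.47 (SE 0.10, limma adjusted p = 0.00590).

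Lztfl1 lay at 2.23, 5.59 and 6.75 in C57 WT and at 2.21, 2.53 and 2.95 in 129 WT. C57 WT arrays 29 and 37 lay within the 129 range, at 2.88 and below, and the other 7 were at 5.31 or above. The difference was -2.61 (SE 0.37, limma adjusted p = 2.10e-05). None of its 4 other probe sets was called, and their differences were -0.26 to 0.18. Dzip1 was at the 129 level in 4 of the 9 C57 WT arrays (28, 33, 37 and 42) and differed by -2.21 (SE 0.60, limma adjusted p = 0.0488). That call was lost without any 1 of 14 of the 18 arrays, with adjusted p up to 0.119.

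Mtmr7 encodes a myotubularin-related phosphatase of inositol lipids and had the largest fall of a named gene. It lay at 2.65, 6.53 and 7.71 in C57 WT and at 2.28, 2.44 and 2.75 in 129 WT. C57 WT array 42 alone lay at the 129 level. The difference was -3.73 (SE 0.60, limma adjusted p = 0.000143). Within the array sets it was -4.30 (limma adjusted p = 0.00706) and -3.30 (0.0972). The probe set with this fall was of a class that may pair with several transcripts. The other probe set of Mtmr7, with means of 7.99 and 7.71, was not called.

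Also named were, higher in 129, Daam1, a formin that nucleates actin (1.19, SE 0.31, limma adjusted p = 0.0365), Npas3, a neuronal transcription factor (0.99, SE 0.27, limma adjusted p = 0.0442), and Tenm2, a teneurin of synaptic adhesion (0.94, SE 0.21, limma adjusted p = 0.00811). Daam1 lost its call without any 1 of 10 arrays (adjusted p up to 0.0945) and Npas3 without any 1 of 13 (up to 0.114). Lower was Ndel1, a regulator of the motor dynein, which lay at 3.84, 5.14 and 5.63 in C57 WT and at 2.48, 2.80 and 3.29 in 129 WT. Ndel1 did not overlap and differed by -2.07 (SE 0.23, limma adjusted p = 2.87e-07). Pnma2, a paraneoplastic antigen gene of neurons, lay at 6.06, 6.43 and 6.64 in C57 WT and at 3.86, 4.08 and 4.46 in 129 WT, and no C57 WT array came near the 129 level. It differed by -2.25 (SE 0.27, limma adjusted p = 1.01e-06). For both Ndel1 and Pnma2 the other probe set was not called. The average of the 2 probe sets differed by -1.04 for Ndel1 and by -1.12 for Pnma2.

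Lsm11, a subunit of the U7 particle that processes histone transcripts, was the only one of the 12 largest rises with a second called probe set in the same direction. Its probe sets were higher in 129 by 1.14 (SE 0.17, limma adjusted p = 7.52e-05) and 0.94 (SE 0.15, limma adjusted p = 0.000117). Ankrd11, a chromatin regulator, differed by 1.07 (SE 0.17, limma adjusted p = 0.000149), Supt7l, a subunit of the STAGA complex, by 0.91 (SE 0.12, limma adjusted p = 4.70e-06), and Cdk12, a kinase of RNA polymerase II, by 0.91 (SE 0.19, limma adjusted p = 0.00447). Ankrd11 was not called in knockout (limma adjusted p = 0.145) nor when its 7 probe sets were averaged (0.13, adjusted p = 0.572). Cdk12 was not called when its 7 probe sets were averaged (0.15, adjusted p = 0.191), and the averages of Tenm2 (0.25, adjusted p = 0.109) and Npas3 (0.30, adjusted p = 0.113) were not called either. Zc3h4, a zinc finger protein that restrains transcription outside genes, was lower by -2.05 (SE 0.41, limma adjusted p = 0.00274), with C57 WT arrays 26 and 40 at the 129 level. The other probe set of Zc3h4 was not called, and the average of the 2 differed by -1.04.

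Rps9, a ribosomal protein gene, showed how far probe sets of a gene could part. A probe set of a class that may pair with several transcripts lay at 3.48, 7.20 and 8.28 in C57 WT and at 3.34, 3.60 and 4.20 in 129 WT, a difference of -3.01 (SE 0.57, limma adjusted p = 0.00157). C57 WT arrays 26 and 40 were at the 129 level for this probe set. The brightest Rps9 probe set had means of 10.47 and 10.50 and differed by 0.03.

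The remaining named genes were Stbd1, a glycogen-binding protein (1.30, SE 0.15, limma adjusted p = 5.91e-07), Cuedc1 (1.19, SE 0.26, limma adjusted p = 0.00867) and Kbtbd11 (-2.11, SE 0.39, limma adjusted p = 0.00126). Stbd1 and Cuedc1 did not overlap between the strains, and Kbtbd11 did, through C57 WT arrays 33 and 42. The brightest Kbtbd11 probe set differed by -0.07 and was not called (limma adjusted p = 0.857). Another of the 12 largest falls came from a probe set annotated to the miRNA gene Mir1931, which was not matched to the mature miRNA, so no value is given. Within the smaller array sets, calls of genes named by rule were lost in both sets for Gdpd3, Cuedc1, Daam1, Npas3, Cdk12, Rps9, Dzip1, Zc3h4, Diablo and Nmnat1. They were lost in the first set alone for Xaf1, Lsm11, Tenm2, Galc, Oasl2 and Drc1, and in the second alone for Ankrd11, Mtmr7, Kbtbd11 and Trim30a, and none of these differences reversed.

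Nmnat1, which makes NAD in the nucleus, was the only called gene of 17 measured in NAD metabolism, beside 1.34% of all genes. Its signal was 3.62, 5.29 and 7.40 in C57 WT and 3.50, 3.83 and 4.09 in 129 WT. C57 WT arrays 29, 33, 37 and 42 lay at 3.62 to 4.12, and the other 5 at 5.29 to 7.40. The difference was -1.47 (SE 0.38, limma adjusted p = 0.0351), its second probe set differed by -1.36 (SE 0.35, limma adjusted p = 0.0341), and the call was lost without any 1 of 12 of the 18 arrays (adjusted p up to 0.0973).

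The other lists held no called gene by the brightest probe set, where the share of all genes called, 1.34%, gives under 1 gene for a list of their size. They were astrocyte markers (0 of 12), vessel markers (0 of 11), choroid plexus genes (0 of 9), striatal genes (0 of 12), hippocampal genes (0 of 14), thalamic and hypothalamic genes (0 of 13), GABA genes (0 of 15), glutamate receptors (0 of 20), neuropeptides (0 of 18), activity-induced early genes (0 of 20), respiratory chain subunits (0 of 27), genes of endoplasmic reticulum stress (0 of 23) and sex-linked genes (0 of 4), so these counts of 0 do not set the lists apart from other genes. An unadjusted p under 0.05 was found for 9.70% of all genes. In these lists it was found for 3 astrocyte markers, 2 striatal genes and 2 early genes. It was found for 1 gene each of the vessel, hippocampal, GABA, glutamate, endoplasmic reticulum and sex-linked lists, and 0 of the others. The median differences of these lists lay between -0.06 and 0.05. Choroid plexus genes varied most by array within both strains, from 3.58 to 5.67 in C57 WT and from 3.69 to 5.31 in 129 WT. Other probe sets were called for Gabrb1, a GABA-A receptor subunit (-0.75, SE 0.14, limma adjusted p = 0.00148), and Rgs5, a pericyte gene (-0.87, SE 0.19, limma adjusted p = 0.00700). Both genes were chosen after their values were seen. The rest of the Gabrb1 probe sets differed by 0.03, -0.03 and -0.05 and were not called. In knockout the called Gabrb1 probe set differed by -0.06 (limma adjusted p = 0.955), and its lowest 129 WT array was 73, at 6.75. Rgs5 had 1 of 4 probe sets called, which was of a class that may pair with several transcripts. In knockout this Rgs5 probe set differed by -0.59 (limma adjusted p = 0.0981). Of 10 measured genes known to vary between mouse strains, none was called, beside 1.34% of all genes. Of the 10, 3 had an unadjusted p under 0.05, beside 9.70% of all genes. The mean signal over all arrays was below 3.60 for 4 of the 10. Their differences lay between -0.09 and 0.87, and Gabra2 differed by 0.11 (SE 0.08, limma adjusted p = 0.762).

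Probe sets of a gene often went apart. Of 448 genes with a called probe set, 351 had several probe sets. In 302 of these no other probe set was called, in 39 another was called in the same direction, and in 10 another was called in the opposite direction. Among the 53 genes whose largest called difference was at least 2-fold, the median of that difference was 1.49 and the median of the largest other difference was 0.262. The largest difference came from the brightest probe set in 14 of the 53.

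**Figure D3:**
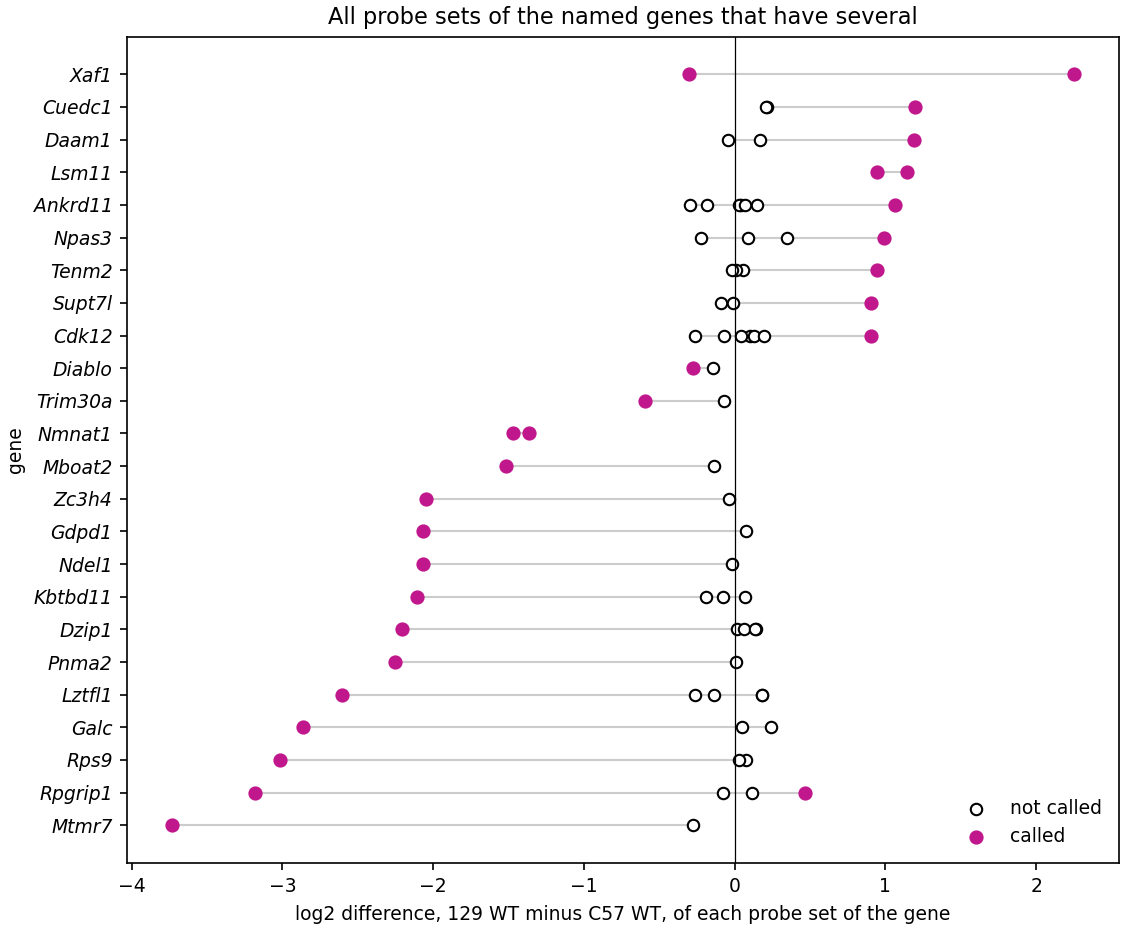
The log2 difference between 129 WT and C57 WT (horizontal axis) of every probe set of the 24 named genes that were called and have several (vertical axis), with called probe sets filled. The plot holds 77 probe sets, 28 of them called, and for most genes 1 filled point lies away from open points near 0.

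Sox11, a transcription factor of neuronal development that was chosen after its values were seen, had called probe sets on both sides: 1 was lower in 129 by -1.97 (SE 0.28, limma adjusted p = 1.96e-05), and 2 were higher by 1.42 (SE 0.38, limma adjusted p = 0.0436) and 0.73 (SE 0.19, limma adjusted p = 0.0279). Ppp1cb, a catalytic subunit of protein phosphatase 1 chosen in the same way, had 1 probe set lower by -0.51 (SE 0.09, limma adjusted p = 0.000366) and another higher by 0.82 (SE 0.09, limma adjusted p = 9.64e-08).

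The C57 arrays were not alike at the probe sets that separated the strains. At the 120 called probe sets of at least 2-fold, an array was counted on the 129 side where it lay beyond the midpoint of the C57 WT and 129 WT medians. As the wild-type arrays chose these probe sets and midpoints, their counts are a description. The C57 WT arrays lay on the 129 side at 8 to 31 of the 120 probe sets: array 28 and array 34 at 8, array 25 at 12, array 40 at 13, array 33 at 22, array 37 at 26, array 26 at 28, array 29 at 30 and array 42 at 31. No C57 WT array lay on the 129 side throughout, and none lay on the C57 side throughout. The 129 WT arrays lay on the 129 side at 115 to 120 of them, with array 73 lowest.

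At 33 of the 120 probe sets no C57 WT array lay on the 129 side. At 30 it was 1 array, at 33 it was 2, at 14 it was 3 and at 10 it was 4. The median SD over the 120 was 0.712 in C57 WT and 0.196 in 129 WT, and it was larger in C57 WT at 114 of them. Over all 45037 probe sets the medians were 0.151 and 0.149, and C57 WT had the larger SD at 50.0%. The same order held at the 15 probe sets that were higher in 129, where the C57 WT arrays had the larger SD at 15, and at the 66 whose means both lay above the low-signal level, where they had it at 60.

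The knockout arrays took no part in choosing the 120 probe sets except through the pooled spread. The C57 KO arrays lay on the 129 side at 28 to 53 of them, with a median of 36, and the 129 KO arrays at 116 to 120. The median SD was 0.827 in C57 KO and 0.232 in 129 KO, and it was larger in C57 KO at 118 of the 120. Xaf1 lay at 5.66 to 6.08 in C57 KO arrays 1, 2, 7 and 8 and at 2.70 to 3.17 in the other 5. Rpgrip1, at which no C57 WT array reached the 129 level, lay at 5.57 to 6.06 in C57 KO arrays 1, 5, 8 and 10 and at 8.43 to 9.51 in the other 5. Galc lay at 2.60 in C57 KO array 2 and at 5.62 to 7.05 in the others.

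**Figure D4:**
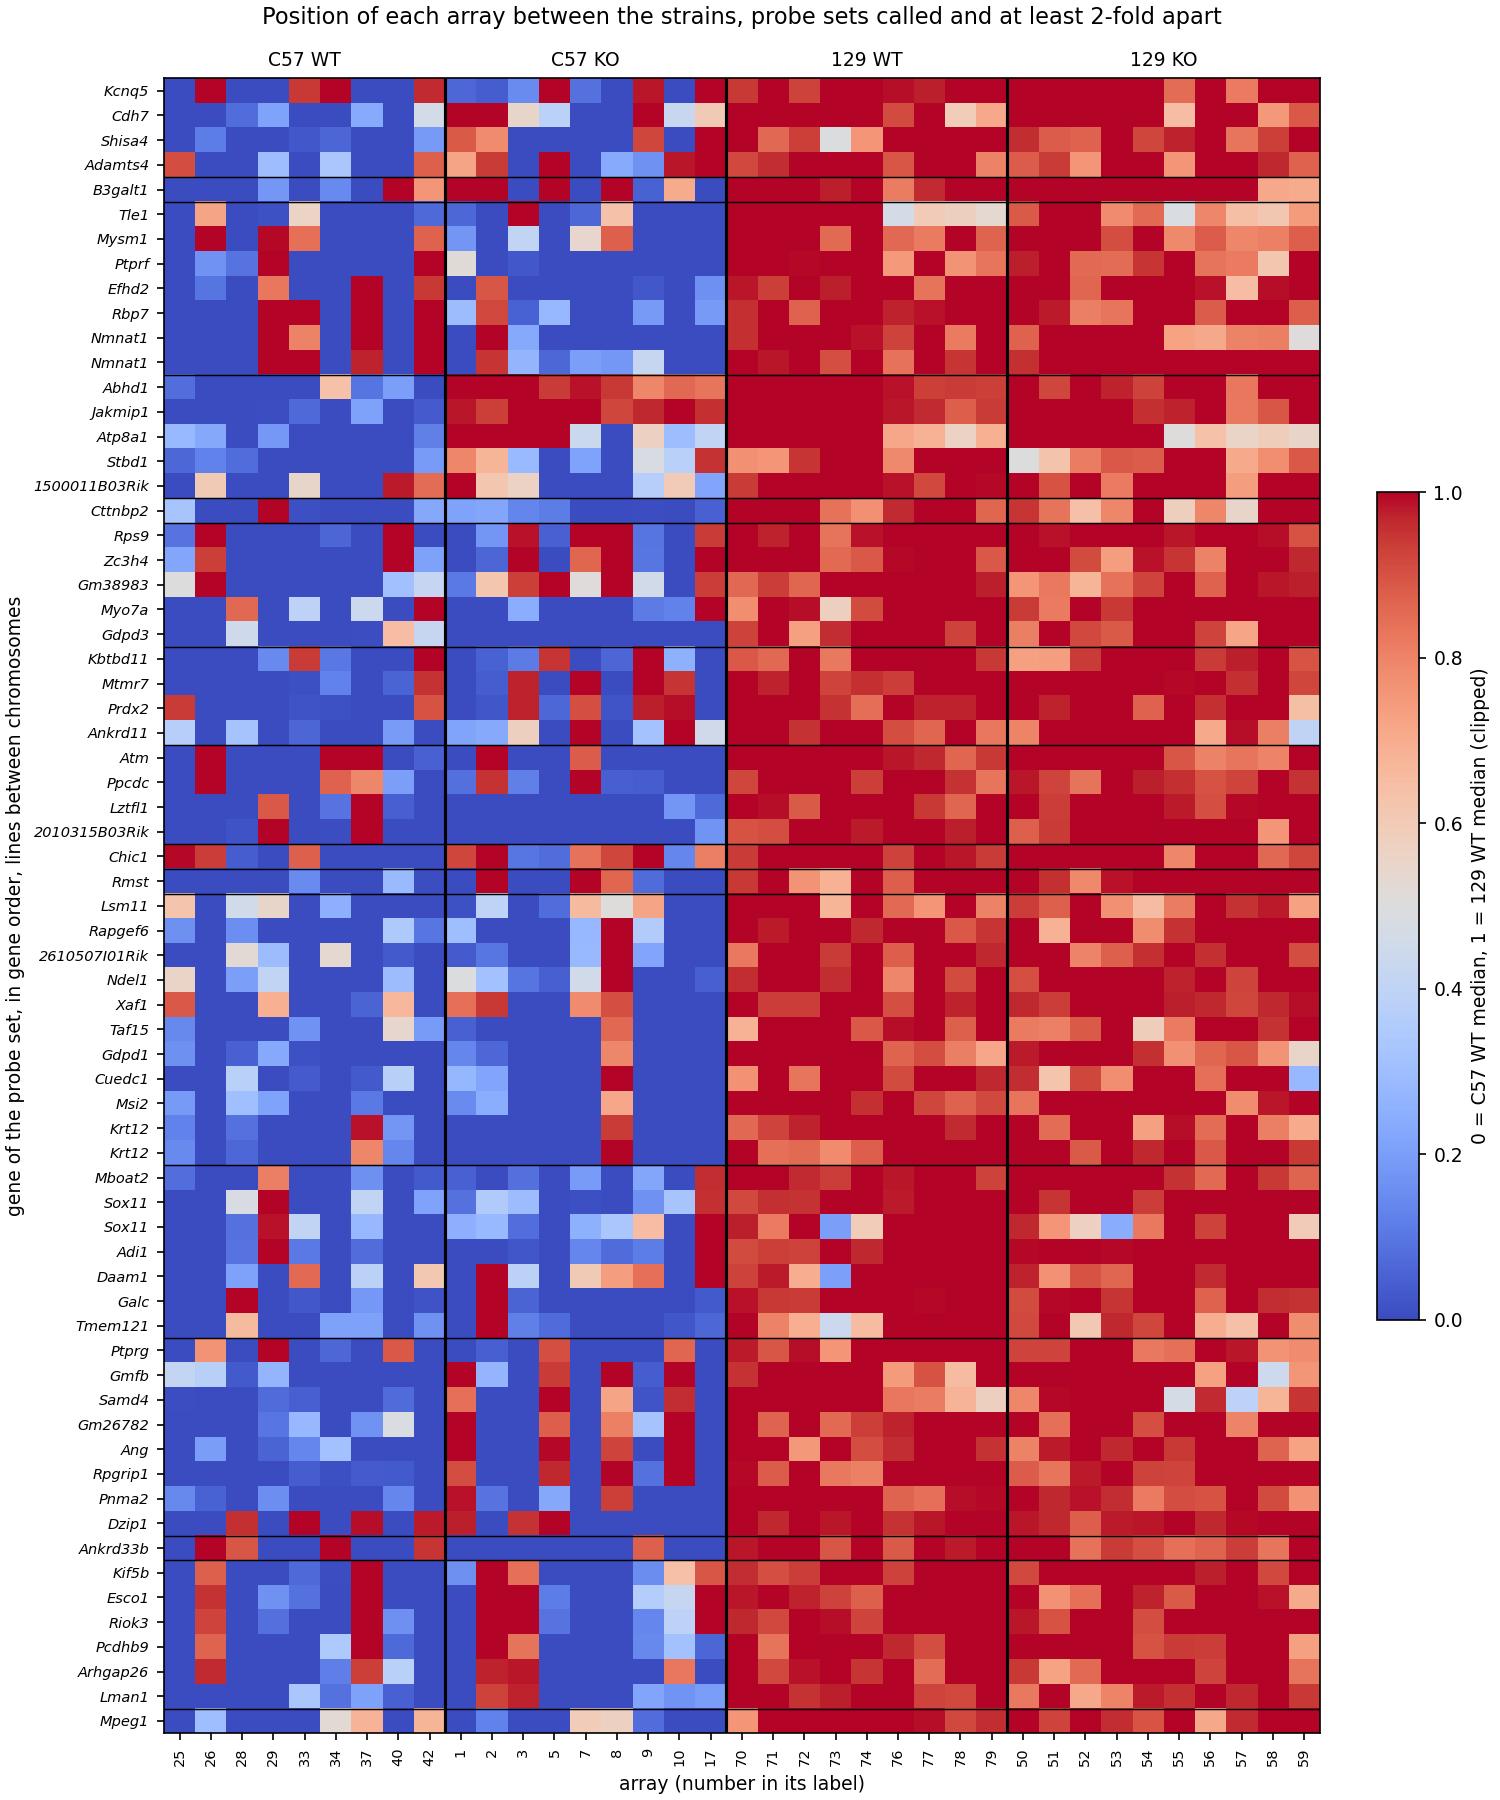
The position of each of the 37 arrays (horizontal axis, by group and array number) between the C57 WT median (0, blue) and the 129 WT median (1, red) for 67 called probe sets of at least 2-fold that could be placed (vertical axis, labelled by 64 genes in gene order, with lines between chromosomes). The 129 columns are red nearly throughout, while the C57 columns are blue with red cells that often continue from a gene to the next gene in order.

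Genes that lie near each other had the same C57 arrays on the 129 side. The order of the genes was taken from the RefSeq annotation of GRCm38.p6, and 65 genes of the 120 probe sets could be placed, each read by its probe set of largest difference. Of 20 pairs of genes with at most 100 annotated genes between them, 16 had the same arrays on the 129 side in all 18 C57 arrays (80.0%). Of 137 pairs farther apart on 1 chromosome it was 10 (7.30%), and of 1923 pairs on different chromosomes it was 0. In the knockout arrays alone, 17 of the 20 near pairs were identical (85.0%), beside 36 of the 137 pairs farther apart on 1 chromosome (26.3%) and 15 of the 1923 pairs on different chromosomes (0.780%). Pairs share genes and arrays, so these shares are a description.

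The runs of shared arrays, with genes chosen after their values were seen, were as follows. Mboat2, Sox11 and Adi1 had C57 WT array 29 and C57 KO array 17 on the 129 side. Rbp7 and Nmnat1, with 1 annotated gene between them, had C57 WT arrays 29, 33, 37 and 42 and C57 KO array 2. Gmfb, Samd4, Ang and Rpgrip1 had no C57 WT array and C57 KO arrays 1, 5, 8 and 10. Esco1 and Riok3 had C57 WT arrays 26 and 37 and C57 KO arrays 2, 3 and 17, and their neighbour Kif5b, a kinesin heavy chain, had C57 KO array 10 as well.

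Atm, the kinase of the DNA damage response, and Ppcdc, an enzyme of coenzyme A synthesis, had C57 WT arrays 26, 34 and 37 and C57 KO arrays 2 and 7. Gdpd1, Cuedc1 and Msi2 had no C57 WT array and C57 KO array 8. Within such a run the directions could differ: Cuedc1 was higher in 129, while Msi2, an RNA-binding protein gene with 4 annotated genes between it and Cuedc1, was lower by -1.70 (SE 0.17, limma adjusted p = 4.07e-08). Galc and Tmem121 had C57 WT array 28 and C57 KO array 2, although 453 annotated genes lie between them. Rps9 and Zc3h4, with 510 between them, had C57 WT arrays 26 and 40 and C57 KO arrays 3, 7, 8 and 17.

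The genes whose signals followed those of Xaf1, Rpgrip1 and Galc most closely over the 18 wild-type arrays, after the group means were removed, were mostly not called themselves. For Xaf1 they were Midn (Pearson r = 0.844), Efna5 (0.766), Ttc19 (0.766), 2810021J22Rik (0.764) and Dusp15 (0.761). For Rpgrip1 they were Tcta (0.921), Ctc1 (0.885), Pigb (0.879), Klhdc8a (0.878) and Ddx56 (0.876), all on other chromosomes. For Galc they were Ighm (0.815), Treml2 (0.780), Ctsc (0.771), Zfp386 (0.747) and Rpp14 (0.745). Of these 15 genes only Ighm and Zfp386 were called, at -0.54 (limma adjusted p = 0.00823) and -0.69 (limma adjusted p = 0.00319), and both lie on the chromosome of Galc. The arrays share tissue, platform and normalization, and the genes were picked as the highest of all, so r is a description.

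The strain difference was measured again in the knockout arrays, which share no array with the wild-type comparison. Of the 691 called probe sets, 661 had the same direction in knockout and 323 were called there as well (46.7% of the wild-type calls and 34.0% of the 949 knockout calls, which were 2.11% of all probe sets). None was called in opposite directions. Of the 120 probe sets of at least 2-fold, 119 had the same direction and 86 were called. Their median absolute difference was 1.41 in wild type, and in knockout it was 1.32 when turned to the wild-type direction. Over all 691 called probe sets these medians were 0.537 and 0.398. Wild-type and knockout values were side by side at 2.25 and 1.98 for Xaf1, -3.18 and -1.96 for Rpgrip1, -2.86 and -2.84 for Galc, -2.61 and -3.47 for Lztfl1, and 1.64 and 2.12 for Gdpd3. They were -3.73 and -2.50 for Mtmr7 and 1.30 and 0.62 for Stbd1. Named genes not called in knockout included Zc3h4 (-1.26, limma adjusted p = 0.0995) and Oasl2 (-0.24, limma adjusted p = 0.296). Daam1 (0.85, limma adjusted p = 0.183) and Npas3 (0.83, limma adjusted p = 0.0925) were not called there either.

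**Figure D5:**
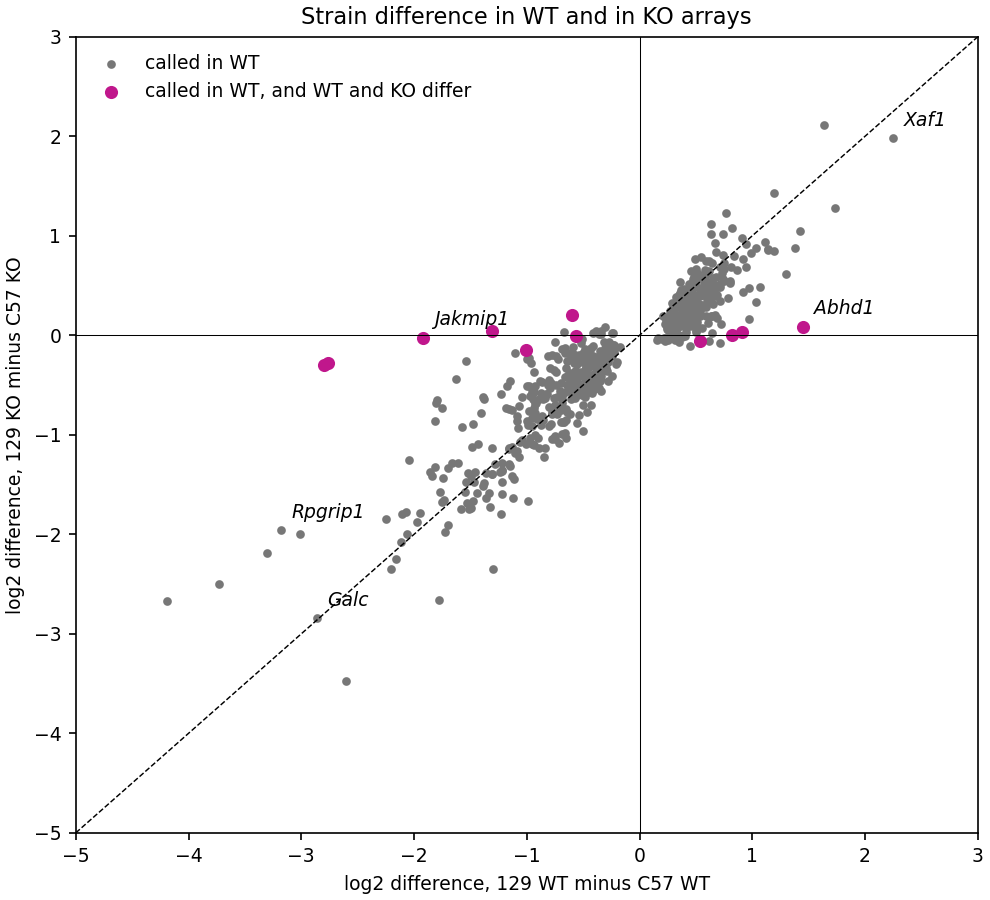
The log2 strain difference in knockout arrays (vertical axis) against that in wild-type arrays (horizontal axis) for the 691 probe sets called in wild type, with a dashed line of equal difference. Most points lie along the line, and the 11 purple points, where the 2 differences were called unequal, lie near 0 on the vertical axis.

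The strain difference itself differed between wild type and knockout at 11 probe sets (0.0244%). All 11 were called in wild type and 0 of them in knockout by limma, where 1 had an unadjusted p under 0.05. Over all probe sets, 1538 had an unadjusted p under 0.05 in this test. The 6 with 1 gene symbol, for Abhd1, Jakmip1 (2 probe sets), Ppp1cb, Supt7l and Drc1, all lie on the chromosome that carries Wfs1. Jakmip1, a neuronal microtubule-binding protein chosen after its values were seen, lay at 5.83, 6.22 and 6.49 in C57 WT and at 3.78, 4.37 and 4.60 in 129 WT, a difference of -1.92 (SE 0.10, limma adjusted p = 9.05e-17). Its C57 KO arrays were at the 129 level, with a mean of 4.34 ± 0.17 (SD, n = 9), and the strain difference in knockout was -0.02. Abhd1 differed by 1.45 in wild type and 0.08 in knockout, with a C57 KO mean of 5.88 ± 0.20 (SD, n = 9). Drc1, a subunit of the dynein regulatory complex of cilia, differed by 0.54 (SE 0.07, limma adjusted p = 5.20e-06) and -0.06.

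Wild-type calls were also more frequent on that chromosome. Of 1122 placed genes on it, 38 were called by their brightest probe set (3.39%), beside 203 genes elsewhere (1.20%). The other chromosomes ranged from 0.120% to 2.61%, with a median of 1.35%. The share was not tested against the other chromosomes, since genes of a chromosome are not independent.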

How the data were processed

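The values analysed were log2 probe set signals as deposited by the authors. Per the submitters' processing notes MAS5 and GCRMA were used; their versions, roles and order are not given in the sources used here. According to the platform annotation, 34945 probe sets had 1 symbol, 932 several and 9160 none; 18032 of 18193 genes were placed in gene order. limma 3.58.1 in R 4.3.3 was fitted to all 37 arrays with 1 mean per group and no filter, and p-values were adjusted over 45037 probe sets, 0.05 being the threshold. Named genes were the 12 largest rises and 12 largest falls with 1 symbol (no clone or predicted names), up to 3 called members of each gene list, and Xaf1, Rpgrip1, Galc, Wfs1, Abhd1, Drc1 and Gabra2; others are marked as chosen after their values were seen. The comparison and the gene lists were chosen with earlier results of these data known. The fit was tested on simulated normal values with the same SD in every group. It was not tested with the unequal spread of the strains at probe sets of at least 2-fold. The number of arrays limits the precision. Alternatives covered filters, normalization, priors, weights, covariates, 2 array sets split by the residuals of the 200 most variable probe sets, and left-out arrays. Figures were drawn with matplotlib 3.10.9. The labels' array numbers are shared by no 2 groups.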

Additional observations from a re-analysis of the deposited data

Results flagged for a closer look

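In 6 of 62 groups of 9 wild-type arrays examined, 1 array stood far from the others by Dixon's criterion, which chance meets in about 1 group in 20. In C57 WT these were array 42 for Mtmr7, at 2.65 beside 6.01 to 7.71 in the others; array 28 for Galc, at 2.85 beside 5.26 to 6.97; array 34 for Abhd1, at 5.37 beside 4.14 to 4.71; and array 42 for Wfs1, at 9.73 beside 9.16 to 9.38. In 129 WT they were array 72 for Gdpd3, at 7.36 beside 7.57 to 7.77, and array 73 for Rps9, at 4.20 beside 3.34 to 3.70.

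The strain difference differed between wild type and knockout for 3 genes named by rule. The difference in wild type minus that in knockout was 1.37 for Abhd1 (limma adjusted p = 1.12e-06), 0.88 for Supt7l (limma adjusted p = 0.0207) and 0.59 for Drc1 (limma adjusted p = 0.00280).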

How the results depend on the processing

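No paired analysis was possible because the groups share no array numbers. The wild-type count of 691 called probe sets was 474 to 977 under both low-signal filters, both normalizations, the trended prior, a fit of only these groups, and the residual component or array set as covariate. Array weights moved it to 1363 (genes from 243 to 521). Within array set 1 it was 177 (51 genes) and within array set 2 it was 307 (97 genes), each with fewer arrays. The knockout count of 949 was 577 and 108 within these sets. The 11 probe sets of unequal difference were 7 and 1 there, and 6 under the filter at the 60th percentile; a fit of only the groups compared does not apply to them. With single arrays left out, the wild-type count was 545 to 749, genes 184 to 258, the knockout count 742 to 1076 and the unequal differences 9 to 16. Chosen after seeing the data, an adjustment over 1 probe set per gene above the 40th percentile gave 269 genes. Wfs1, not called, turned from 0.01 to -0.031 within set 2 and ranged from -0.0094 to 0.066 with single arrays left out, being below 0 without C57 WT array 34 (-0.0056), C57 WT array 37 (-0.0052) or 129 WT array 74 (-0.0094). Of 29 called genes named by rule, 24 kept their call with each array left out; within set 1, 16 lost it, and within set 2, 14. The trended prior ended the calls of Daam1, Npas3, Dzip1 and Nmnat1, a fit of only these groups those of Gdpd3, Npas3, Dzip1 and Nmnat1, and averaging each gene's probe sets those of Ankrd11, Npas3, Tenm2, Cdk12 and Dzip1. None of the 29 reversed. The cause of these changes was not tested. Both wild-type means lay below the low-signal level of 3.60 at 98 called probe sets.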
